A study of Mus musculus with 6 samples.

Results

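The E2F transcription factors and the retinoblastoma pocket proteins were described in adult mouse hematopoietic stem cells (HSCs), with all probe sets whose platform gene symbol was E2f1, E2f2, E2f3, E2f4, E2f5, E2f6, E2f8, Rb1, Rbl1 or Rbl2. The rule found 23 probe sets for these 10 genes, of 45037 probe sets and 18193 named genes on the array. Each of the 6 single-colour arrays held RNA of 1 sample. Of these, 3 came from adult mice homozygous for a knock-in at PU.1 (labelled PU.1 ki/ki, called knock-in from here on), the other 3 from adult wild types. Both groups were sorted by the same gate, positive for Sca1, cKit and CD150 and negative for lineage markers and CD48, which selects long-term HSCs. No treatment is named for either group. The title of the series concerns autoregulation of PU.1, the ETS factor encoded by Spi1, and proliferation of adult HSCs, so the comparison bears on the machinery that commits a stem cell to division. The labels give neither the sex of the mice, the design of the knock-in allele nor whether replicates were separate animals or pools, so the spread that p-values rest on here may be partly or wholly technical. A free-text note on each sample speaks of embryos and goes against every other label, and it was set aside.

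Most E2F factors bind DNA as dimers with a DP partner, and the family sets the transcription of genes for DNA replication and division. E2f1, E2f2 and E2f3 are the activators of the family. E2f4 and E2f5 act mainly as repressors in quiescent cells, in complexes with the pocket proteins, and E2f6 and E2f8 repress without them. The pocket proteins Rb1 (pRB), Rbl1 (p107) and Rbl2 (p130) hold E2F targets silent until cyclin D and cyclin E kinases phosphorylate them. Most adult HSCs are quiescent, and loss of pocket proteins in the blood system is known to drive stem cells into cycle.

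Several genes of the family are themselves known targets of E2F, and the canonical site was therefore looked for in their promoters. It was searched on both strands as TTTCCCGC, TTTCGCGC, TTTGCCGC or TTTGGCGC, from 250 bases before to 50 bases after each RefSeq transcription start (build GRCm38.p6). The table held promoters of 7 of the 10 genes, with 9 starts in all, and not those of E2f4, E2f5 and Rb1. A match lay in 1 promoter each of E2f2, E2f3 and Rbl1, whereas 2.26% of all 32851 promoters in the table held one. The stretches with a match follow, shown because they are where a member's own promoter carries the letters that E2F factors bind. Each is 5′ to 3′ in the direction of the gene, and capitals mark the match.
E2f3, chr13:29986064-29986123, minus strand, the 60 bases before the start: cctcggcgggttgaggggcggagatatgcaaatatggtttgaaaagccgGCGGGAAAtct
Rbl1, chr2:157204535-157204594, minus strand, the 60 bases before the start: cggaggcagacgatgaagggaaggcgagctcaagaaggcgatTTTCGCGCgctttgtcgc
E2f2, chr4:136172294-136172323, plus strand, 30 bases that end 50 bases after the start: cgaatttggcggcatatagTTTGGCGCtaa
The match of E2f3 lies on the strand opposite to the gene, and the other two lie on the gene's strand. The other start of E2f3 and of E2f2, and the promoters of E2f1, E2f6, E2f8 and Rbl2, held none of these letters in this window. A match describes the letters only.

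The arrays differed in ways that touch every value below. Probe sets that were bright elsewhere (median of the remaining arrays 512 or more) had dropped out on some arrays, by 4-fold or more. Such dropout touched 11.5% of bright probe sets on the second wild-type array, 11.3% on the third and 1.12% on the first, as against 0.119 to 0.219% in the knock-in group. A drop of that size, at any brightness, was seen for 2 of the 23 probe sets of the family on wild-type replicate 2 (E2f1 1417878_at and Rbl1 1425166_at) and for 0 on any other array. Spi1 read 170, 212 and 161 in knock-in and 158, 195 and 199 in wild type. Of 12 HSC markers 10 were measured, with summed intensities of 9358 to 11787 in knock-in and 7489 to 8833 in wild type, and Ly6a (Sca1) was not analysed here. The gate's own marker Slamf1 (CD150) read 696, 1525 and 170 in knock-in and 440, 54 and 42 in wild type. Cd48, which the gate excludes, read 230, 90 and 290 in knock-in and 704, 193 and 75 in wild type. Wild-type replicate 1 thus stood apart in Cd48, and it had the highest granulocyte and monocyte sum of the markers given next. Of markers of other cells, 5 of multipotent progenitors summed to 3341 to 4445 and 1295 to 2630, and 8 of granulocytes and monocytes, among them Mpo, to 16100 to 20079 and 19082 to 26022. The 6 macrophage markers summed to 354 to 1009 and 158 to 219, 6 of T and NK cells to 336 to 444 and 459 to 719, and 6 of megakaryocytes to 1853 to 3813 and 1298 to 1889. Among the macrophage markers C1qb read 567, 119 and 73 in knock-in and the minimum of 10 on all wild-type arrays. C1qc read 226, 54 and 41 in knock-in and 13, 35 and 29 in wild type. C1qa, with 39, 47 and 19 against 33, 26 and 18, overlapped between groups, as did Cd68, Mrc1 and Adgre1. Adgre1 lay below the median of every array. The 6 erythroid markers summed to 752 to 1438 and 741 to 1546, and 6 endothelial and stromal markers to 423 to 1543 and 228 to 767. The 5 B cell markers summed to 303 to 347 and 195 to 790, with Cd79b at 221 to 263 and 102 to 649, whereas Cd79a, Ms4a1 and Ebf1 lay below the median of every array. Of mature myeloid genes Itgam also lay below every median, while S100a8 read at least 2284 in each sample. The part of dropout and of these cell types in the differences below was not tested. In sorted cells as in any bulk sample, fewer cells of a type and less RNA per cell cannot be told apart.

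No member of the family passed the test between the genotypes after adjustment over all probe sets, and the activator E2f3 was the only one with a probe set whose groups did not overlap. Differences were taken on log2(intensity + 1), as knock-in minus wild type, and 12 of the 23 probe sets were higher and 11 lower, with a median of 0.062 against 0.0021 over all probe sets. The adjusted p (limma, Benjamini-Hochberg) ran from 0.535 to 0.984, and 0 of 23 probe sets passed 0.05, as did 0% of all probe sets. At an unadjusted p under 0.05 there was 1 of 23 (4.35%), against 8.28% of all probe sets. Groups without overlap were also found for 1 of 23 (4.35%), lower in knock-in, against 12.1% of all probe sets (6.62% higher, 5.46% lower). Both counts were the same E2f3 probe set, 1434564_at. With 1 probe set in each count, no departure of the family from the background is read from these shares. The 95% interval of the difference held 0 for 22 of 23 probe sets. With 3 arrays against 3, a two-sided exact permutation test cannot go below p = 0.1.

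**Figure D1:**
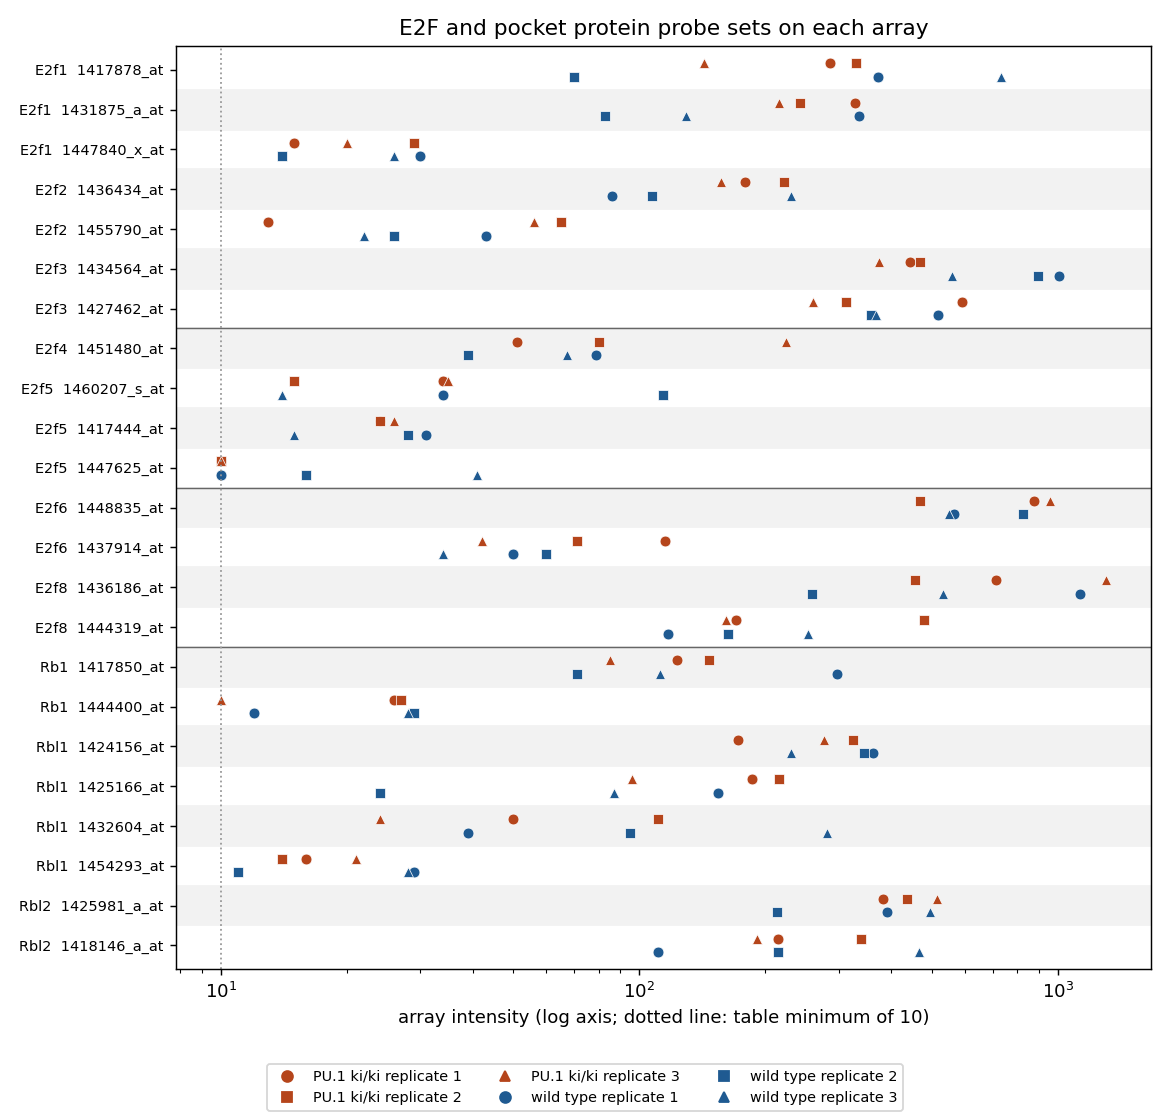
Intensity of each of the 23 probe sets on each of the 6 arrays, on a log axis, with 1 point per array, colour for the genotype (PU.1 ki/ki is the knock-in) and shape for the replicate number; lines separate activators, repressors that act with pocket proteins, repressors that act without them, and pocket proteins. Only the E2f3 1434564_at row has all 3 knock-in arrays (373 to 467) on one side of all 3 wild-type arrays (557 to 1005).

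E2f3, an activator that drives entry into S phase, was lower in all 3 knock-in samples on its brighter probe set, without passing the test. Probe set 1434564_at read 444, 467 and 373 in knock-in and 1005, 897 and 557 in wild type. The nearest values of the groups were thus 467 and 557, and wild-type replicate 3 stood closest to the knock-in arrays. The means were 428 ± 49.0 (SD, n = 3) and 820 ± 234 (SD, n = 3), a difference of -0.90 ± 0.27 (SE, 95% interval -1.58 to -0.21, adjusted p = 0.535). The two-sided exact permutation test gave p = 0.1, the smallest possible here. When single arrays were left out the difference lay between -1.15 and -0.73, and against wild-type replicate 1 alone, the wild-type array with little dropout, it was -1.24. Wild-type replicate 2, an array with much dropout, read 897. Wild-type replicate 1, the highest at 1005, was also the array that stood apart in Cd48. The part of dropout and of other cell types in this difference was not tested. The other probe set, 1427462_at, read 589, 311 and 260 in knock-in and 517, 357 and 367 in wild type. Its groups overlapped, since knock-in replicate 1 was the highest of the 6 arrays. The difference was -0.17 ± 0.37 (SE, adjusted p = 0.917), with a 95% interval of -1.11 to 0.77 that holds the value of the first probe set as well as 0.

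E2f1, the activator that can also trigger cell death, varied widely among wild-type arrays. Probe set 1417878_at read 285, 329 and 143 in knock-in and 372, 70 and 731 in wild type. Wild-type replicate 2 was the lowest and wild-type replicate 3 the highest of all arrays, so that the wild-type samples spanned the knock-in samples on both sides. The difference was -0.17 ± 0.95 (SE, 95% interval -2.60 to 2.26, adjusted p = 0.984), and leaving out single arrays moved it to as low as -1.13 (wild-type replicate 2 omitted) and as high as 0.55 (replicate 3 omitted). On probe set 1431875_a_at the knock-in arrays read 327, 242 and 215 and the wild-type arrays 335, 83 and 129. Here wild-type replicate 1 was level with the highest knock-in array and the arrays with much dropout were low. The difference of 0.74 ± 0.56 (SE, adjusted p = 0.731) became 1.31 without wild-type replicate 1 and -0.38 against that array alone. The third probe set, 1447840_x_at, read 14 to 30 and lay below the median of every array, and the suffix marks probes that can also match other sequences.

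E2f2, an activator with known roles in red cell and T cell growth, read higher in all 3 knock-in samples than on wild-type replicates 1 and 2 but not replicate 3. Probe set 1436434_at read 179, 222 and 157 in knock-in and 86, 107 and 230 in wild type. The difference was 0.52 ± 0.41 (SE, 95% interval -0.54 to 1.57, adjusted p = 0.742), between 0.23 without wild-type replicate 1 and 0.93 without wild-type replicate 3. It did not change sign under any setting tried. Its dimmer probe set, 1455790_at, read 13, 65 and 56 in knock-in and 43, 26 and 22 in wild type, with the lowest and the highest value both in knock-in. The difference was 0.32 ± 0.69 (SE, adjusted p = 0.917).

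Of the repressors that work with pocket proteins, E2f4, the main E2F of quiescent cells, had 1 probe set. It read 51, 80 and 224 in knock-in and 79, 39 and 67 in wild type. Knock-in replicate 3 stood far above the other arrays, and the remaining knock-in arrays lay within or close to the wild-type range. The difference was 0.71 ± 0.62 (SE, 95% interval -0.89 to 2.31, adjusted p = 0.768), and 0.11 without knock-in replicate 3. E2f5, its close relative, was dim on all 3 of its probe sets. On 1460207_s_at, whose suffix marks probes shared by several transcripts, the knock-in arrays read 34, 15 and 35 and the wild-type arrays 34, 114 and 14. Wild-type replicate 2 alone was bright, and the difference of -0.53 (adjusted p = 0.868) became 0.25 without it. On 1417444_at all arrays read 15 to 31, below their medians, with 24.7 ± 1.15 in knock-in and 24.7 ± 8.50 in wild type (SD, n = 3 each). On 1447625_at 4 of the 6 arrays were at the table's minimum of 10, among them all 3 knock-in arrays, so no fold is given.

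Of the repressors that work without pocket proteins, E2f6, which acts with a Polycomb complex, had overlapping groups. Probe set 1448835_at read 875, 469 and 958 in knock-in and 563, 824 and 550 in wild type. Knock-in replicate 2 was the lowest array and the other knock-in arrays were the highest. The difference was 0.21 ± 0.35 (SE, 95% interval -0.68 to 1.10, adjusted p = 0.878). Its dimmer probe set 1437914_at read 115, 71 and 42 in knock-in and 50, 60 and 34 in wild type (0.57 ± 0.43 SE, adjusted p = 0.735). Both probe sets of E2f6 were higher in knock-in under every setting tried, though by as little as 0.014 for the brighter one when knock-in replicate 3 was left out. E2f8, an atypical E2F that is itself made in S phase and shuts E2F targets off, read 710, 456 and 1304 in knock-in and 1130, 258 and 530 in wild type on probe set 1436186_at. Wild-type replicate 1 lay near the top and wild-type replicate 2 at the bottom. The difference was 0.48 ± 0.68 (SE, 95% interval -1.25 to 2.21, adjusted p = 0.848), -0.045 without wild-type replicate 2 and -0.59 against wild-type replicate 1 alone. On probe set 1444319_at knock-in replicate 2 stood out with 478, and the other 5 arrays read 117 to 253 (0.48 ± 0.54 SE, adjusted p = 0.809). E2f7, its partner and no member of the set, read 69, 81 and 78 in knock-in and 256, 72 and 48 in wild type. Wild-type replicate 1 was the high array for E2f7, and the other 5 arrays read 48 to 81.

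Rb1, the retinoblastoma protein, was lower in knock-in than on wild-type replicate 1 and at the level of the other wild-type arrays. Probe set 1417850_at read 123, 147 and 85 in knock-in and 297, 71 and 112 in wild type. The difference was -0.21 ± 0.58 (SE, 95% interval -1.70 to 1.29, adjusted p = 0.940). It was 0.37 without wild-type replicate 1, 0.012 without knock-in replicate 3 and -1.36 against wild-type replicate 1 alone, so that its direction rested on single arrays. The other Rb1 probe set, 1444400_at, read 10 to 29, below the median of every array.

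Rbl1 (p107), a pocket protein that E2F itself induces as cells enter the cycle, was read by 4 probe sets that did not point one way. The brightest, 1424156_at, read 172, 323 and 276 in knock-in and 362, 344 and 230 in wild type. Wild-type replicates 1 and 2 were above all knock-in arrays and wild-type replicate 3 was not. The difference was -0.30 ± 0.32 (SE, 95% interval -1.12 to 0.52, adjusted p = 0.798). On 1425166_at the knock-in arrays read 186, 216 and 96 and the wild-type arrays 154, 24 and 87. Wild-type replicate 2 was the low array here. The difference of 1.18 ± 0.77 (SE, adjusted p = 0.700) was the highest in the family, and it was 0.44 without wild-type replicate 2 and 0.027 against wild-type replicate 1 alone. On 1432604_at the readings were 50, 111 and 24 in knock-in and 39, 95 and 281 in wild type, with wild-type replicate 3 alone above the rest. That difference, -0.97 ± 0.92 (SE, adjusted p = 0.777), was the lowest in the family, and -0.25 without wild-type replicate 3. The last probe set, 1454293_at, read 11 to 29, below the median of every array.

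Rbl2 (p130), the pocket protein that prevails in quiescent cells, read 383, 435 and 513 in knock-in and 391, 213 and 495 in wild type on probe set 1425981_a_at. Only wild-type replicate 2 lay below the knock-in range. The difference was 0.35 ± 0.35 (SE, 95% interval -0.56 to 1.25, adjusted p = 0.788) and 0.0018 without that array. On 1418146_a_at the knock-in arrays read 214, 338 and 191 and the wild-type arrays 111, 214 and 465, with the wild-type arrays at both ends. That difference was 0.11 ± 0.58 (SE, adjusted p = 0.983).

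**Figure D2:**
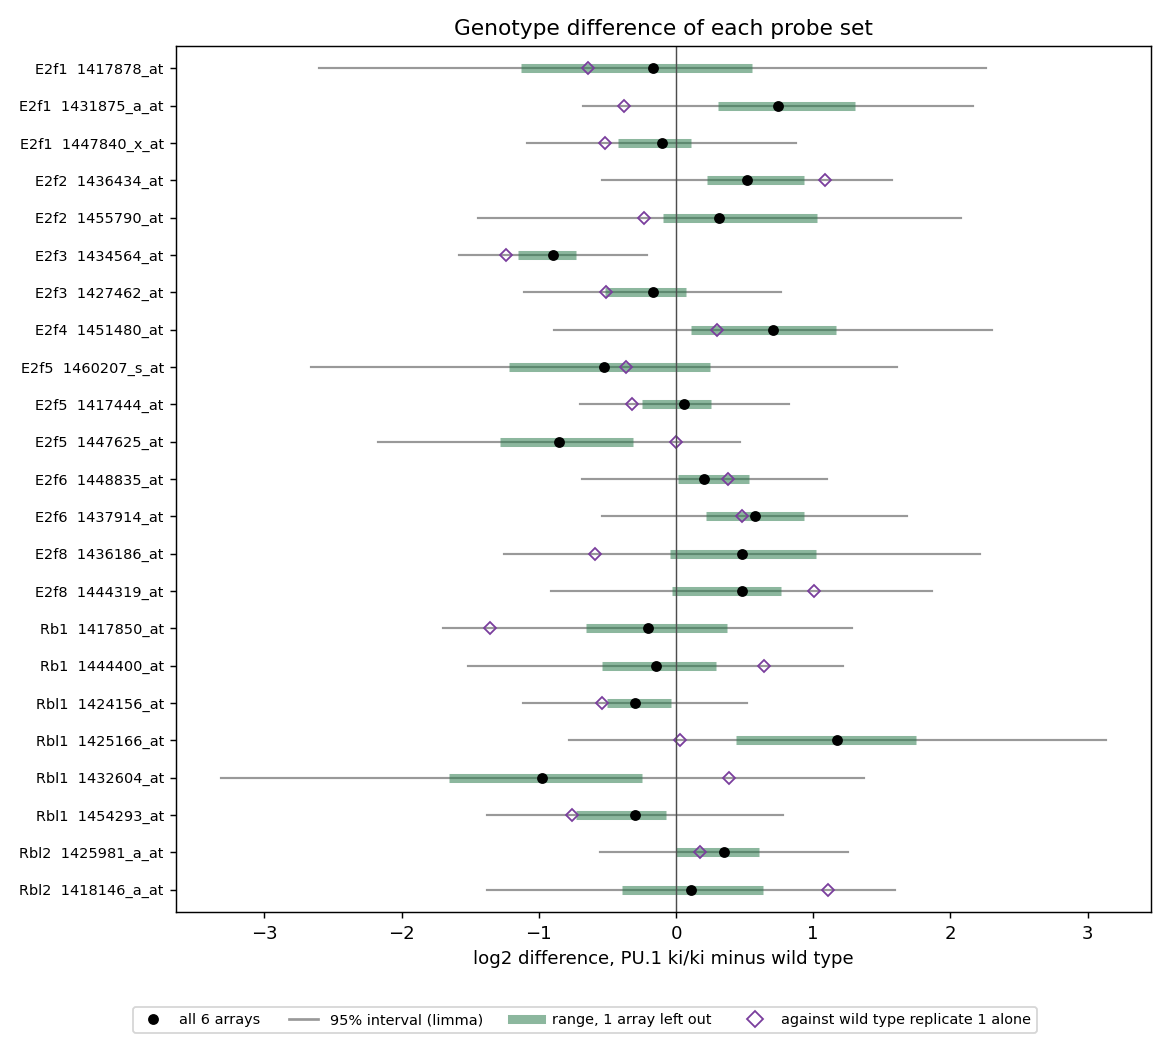
Difference between genotypes (log2, knock-in minus wild type) of the 23 probe sets, with the 95% interval from limma as a thin line, the range over the 6 fits that leave out 1 array as a thick bar, and the value against wild-type replicate 1 alone as an open diamond. The brighter E2f3 probe set (-0.90) is the only one whose interval lies on one side of 0, and the diamonds of E2f8 1436186_at (-0.59) and E2f1 1431875_a_at (-0.38) lie across 0 from their points.

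Probe sets of 1 gene often disagreed. Of the 9 genes with more than 1 probe set, 3 (E2f1, E2f5 and Rbl1) had differences of both signs. Over the 6 arrays the log2 values of a gene's brightest probe set correlated with those of its others at Pearson's r of -0.424 (E2f8) to 0.703 (E2f1, with its dim 1447840_x_at), a description of 13 pairs that share the RNA of each array. The E2f3 pair correlated at 0.382 and the E2f1 pair of brighter probe sets at 0.412.

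In most of these probe sets the wild-type samples varied more than the knock-in samples, as they did over the array as a whole. Among the 23 probe sets, 15 (65.2%) had a larger SD of log2 values among wild-type than among knock-in arrays, against 71.7% of all probe sets. The median SD of the family was 0.68 in wild type and 0.56 in knock-in, and over all probe sets 0.56 and 0.32. Wild-type replicate 1 was the highest array for 7 of the 23 probe sets and wild-type replicate 2 the lowest for 9. Of the brightest probe sets, those of E2f1, E2f4, E2f8, Rb1 and Rbl2 were lowest on wild-type replicate 2, and that of E2f5 was highest there. The level of E2f3 relative to its mean was 0.79, 0.62 and -0.063 among wild types and -0.64 to -0.32 among knock-ins.

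**Figure D3:**
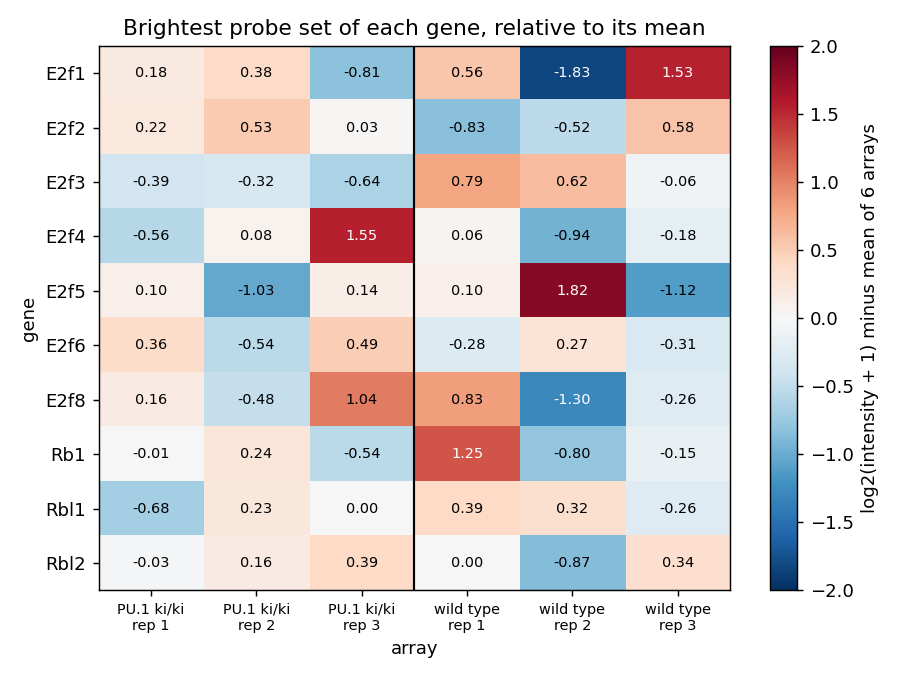
Level of the brightest probe set of each gene on each array, as log2(intensity + 1) minus the mean over the 6 arrays, with blue below and red above that mean and the value printed in each cell. Column wild type rep 2 holds the lowest value of 5 genes, from -1.83 for E2f1 to -0.80 for Rb1, while the E2f3 row is below its mean for all knock-ins and at 0.79, 0.62 and -0.063 for the wild types.

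Partners, regulators and targets of the family were taken as 10 lists, in which 102 of 111 genes were measured, with 1 probe set per gene. None of the 102 passed the test in either direction (limma, adjusted p from 0.508 to 1), and 8 (7.84%) had an unadjusted p under 0.05, against 8.61% of all genes. Groups did not overlap for 13 genes (12.7%), 7 higher and 6 lower in knock-in, against 12.7% of all 18193 genes, so that the lists together stood at the background. The median difference of all genes was 0.0056.

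The DP partners without which most E2F factors bind DNA poorly, Tfdp1 and Tfdp2, overlapped between groups. Tfdp1 read 1573, 1648 and 1358 in knock-in and 1956, 576 and 1170 in wild type, with wild-type replicate 2 low (0.47, adjusted p = 0.786). Tfdp2 read 363, 893 and 889 against 740, 500 and 362 (0.37, adjusted p = 0.833). Their median of 0.42 was 0.18 without wild-type replicate 2, 0.76 without replicate 1 and -0.26 against wild-type replicate 1 alone. Of 7 genes of the MuvB and B-Myb complex, which joins Rbl1 or Rbl2 and E2f4 in the DREAM repressor, 3 were higher and 4 lower (median -0.14). Lin37, a MuvB subunit that repression needs, read 310, 278 and 344 against 253, 235 and 94, without overlap (0.80, adjusted p = 0.661). Lin9, another subunit, read 85, 122 and 76 against 89, 93 and 210 (-0.38, adjusted p = 0.803), and its dimmer probe set had the opposite sign (0.97). Lin52 read 56, 91 and 41 against 32, 39 and 52 (0.55, adjusted p = 0.699). Its dimmer probe set was lower without overlap, with 34, 25 and 30 against 45, 109 and 76 (-1.26, adjusted p = 0.519). Of 8 measured corepressors that pocket proteins recruit, 6 were higher and 2 lower (median 0.35, and 0.15 without wild-type replicate 3), with 2 higher and 1 lower without overlap. The histone deacetylase Hdac1 read 1001, 880 and 1245 against 829, 204 and 145 (1.82, adjusted p = 0.602), and against wild-type replicate 1 alone the difference was 0.31. Arid4a, an Rb-binding protein, read 882, 865 and 959 against 533, 131 and 452 (1.51, adjusted p = 0.599), and 1 of its 2 other probe sets had the opposite sign (-0.17). On the probe sets given, Hdac1 and Arid4a were both lower on wild-type replicates 2 and 3, the arrays with much dropout, than on replicate 1. Sin3a, the scaffold of a deacetylase complex, read 644, 639 and 320 against 1032, 724 and 1793 (-1.11, adjusted p = 0.613). However, 1 of its 2 other probe sets was higher without overlap, with 317, 349 and 297 against 209, 257 and 228 (0.47, adjusted p = 0.536). Smarca4 read 667, 1120 and 629 against 631, 1493 and 766 (-0.21, adjusted p = 0.910). Its dimmer probe set was lower without overlap, with 597, 590 and 498 against 756, 706 and 876 (-0.47, adjusted p = 0.554).

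Upstream of the pocket proteins, the cyclin D and E kinases with Cdc25a were 5 higher and 4 lower of 9 (median 0.021), all with overlap on the brightest probe set. Cdc25a, the phosphatase that activates Cdk2, read 618, 566 and 445 in knock-in and 673, 92 and 200 in wild type (1.21, adjusted p = 0.690). Ccne1 (cyclin E1) read 196, 166 and 96 against 74, 25 and 168 (1.09, adjusted p = 0.712). A dimmer probe set of each was higher without overlap. It read 163, 180 and 88 against 73, 11 and 72 for Cdc25a (1.78, adjusted p = 0.640). For Ccne1 it read 136, 108 and 153 against 90, 55 and 24 (1.39, adjusted p = 0.594). Cdk4, also of this list, was lower without overlap on a dimmer probe set. That one read 1693, 1712 and 1828 against 1942, 2089 and 2174 (-0.24, adjusted p = 0.644). Cdk2, the kinase of cyclin E, read 173, 172 and 189 against 429, 240 and 157 (-0.51, adjusted p = 0.737). On their brightest probe sets cyclin E1 and Cdc25a were lowest on wild-type replicate 2, and Cdk2 was highest on wild-type replicate 1. Of 7 CDK inhibitors, 1 was higher and 6 lower, with a median of -0.24 that was -0.054 without wild-type replicate 1 and -0.48 without knock-in replicate 1. Of the 6 lower, Cdkn2a lay below the median of every array (-0.020). Cdkn2b was dim, with 22, 27 and 20 against 53, 25 and 15. Cdkn1c (p57), an inhibitor that marks quiescent HSCs, read 118, 135 and 167 against 612, 271 and 298, without overlap (-1.40, adjusted p = 0.508). Cdkn1a (p21) read 160, 84 and 73 against 196, 261 and 134 (-0.93, adjusted p = 0.623). The INK4 gene Cdkn2d read 171, 184 and 112 against 123, 195 and 80 (0.29, adjusted p = 0.842).

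Among the G1/S genes that activator E2Fs switch on, 18 were higher and 9 lower of 27 measured (median 0.19), with 2 and 2 without overlap. Cdc6, which loads the replicative helicase, read 756, 855 and 650 in knock-in and 520, 91 and 281 in wild type (1.65, adjusted p = 0.607). Prim1, of the primase, read 1082, 846 and 916 against 462, 389 and 788 (0.85, adjusted p = 0.587). The origin recognition subunit Orc1 read 52, 52 and 42 against 184, 126 and 60 (-1.19, adjusted p = 0.595), and its dimmer probe set had the opposite sign. Dnmt1, the maintenance DNA methyltransferase, read 3981, 4581 and 2973 against 4737, 5482 and 6874 (-0.57, adjusted p = 0.613). The direction of the list depended on the wild-type array, with a median level of 0.44 for replicate 1, -0.59 for replicate 2 and -0.0022 for replicate 3, where knock-in levels were 0.045 to 0.31, and a median difference of -0.30 against wild-type replicate 1 alone. It was -0.060 without wild-type replicate 2 and -0.028 without knock-in replicate 2. Of the 24 G1/S genes with a promoter in the RefSeq table, 12 held the E2F site in the window used above for the members. Those 12 were 8 higher and 4 lower (median 0.46), and the 12 without it 9 higher and 3 lower (median 0.07). Of the 8 higher, Cdt1 (-0.44), Ezh2 (-0.26), Mcm5 (-0.050), Mcm6 (-0.36) and Mcm7 (-0.30) were lower against wild-type replicate 1 alone. Cdc6 (0.53), Msh6 (0.047) and Pola1 (0.0074) stayed higher there. Whether the site bears on the difference was not tested. Cdc6, Orc1 and Dnmt1 held the site, and Orc1 and Dnmt1 were lower where Cdc6 was higher.

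Of the G2/M genes that DREAM silences and B-Myb later activates, 10 were higher and 9 lower of 19 (median 0.060). The mitotic kinases Aurka (298, 169 and 285 against 143, 86 and 64) and Nek2 (198, 187 and 201 against 104, 62 and 136) were higher without overlap, by 1.39 and 1.02 (adjusted p = 0.517 and 0.542). Lower without overlap was the checkpoint kinase Ttk, with 92, 127 and 144 against 181, 261 and 434 (-1.20, adjusted p = 0.551). Kif20a, a kinesin of cytokinesis, read 296, 658 and 862 against 3408, 1224 and 536 (-1.24, adjusted p = 0.699). The dimmer probe set of Aurka went the other way without overlap, with 21, 18 and 19 against 36, 24 and 47 (-0.80, adjusted p = 0.566). That of Ttk also had the opposite sign, with overlap (0.073). The brightest of the other Nek2 probe sets was higher, with overlap (0.76). Of those below the median of every array, one was higher with overlap (0.27). The other was lower without overlap, with all knock-in arrays at the minimum of 10 against 12, 18 and 13 in wild type, so no fold is given. For this list the median level of the wild types was 0.66 for replicate 1, -0.56 for replicate 2 and -0.0085 for replicate 3, and that of the knock-ins 0.021 to 0.17. The median difference was 0.56 without wild-type replicate 1 and -0.62 against that array alone.

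**Figure D4:**
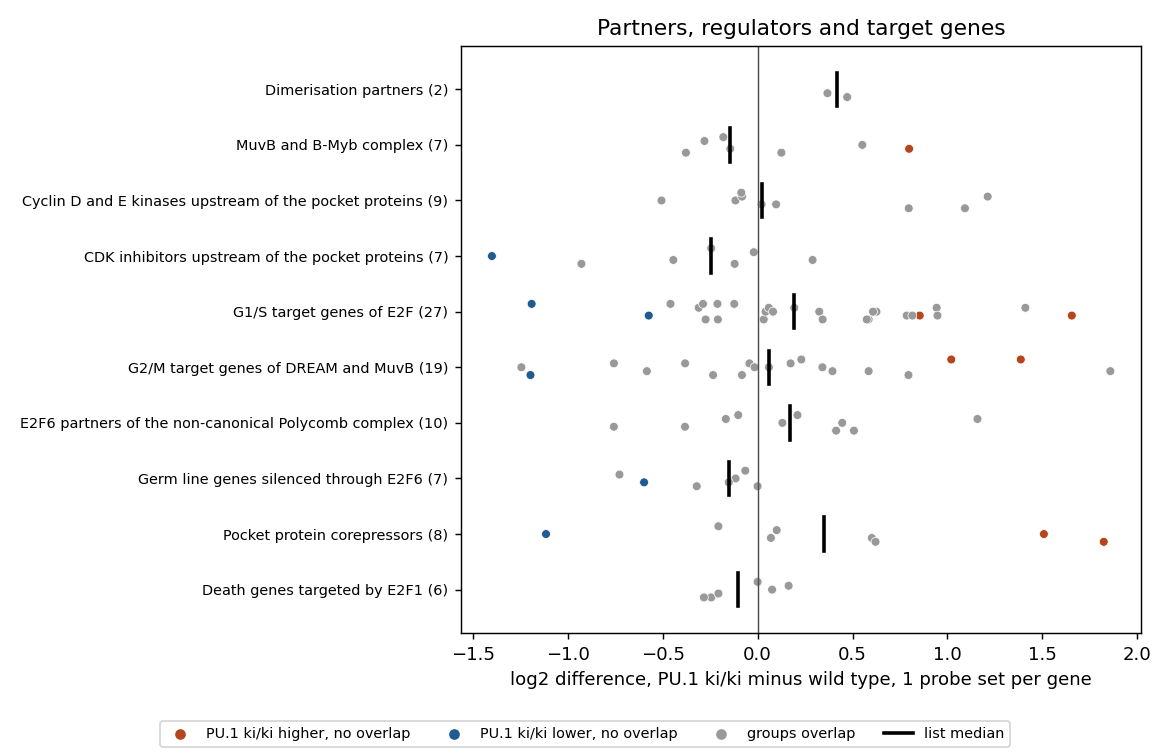
Difference between genotypes (log2, knock-in minus wild type) of the 102 measured genes in 10 lists, with 1 point per gene, colour where the groups do not overlap, a black bar at the list median and the number of measured genes in brackets. Points lie on both sides of 0 in most lists, and the 13 coloured genes are 7 higher and 6 lower.

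The remaining lists belong to single members. Of 10 measured partners of E2f6 in its Polycomb complex, 6 were higher and 4 lower, all with overlap, with a median of 0.17 that was -0.055 without wild-type replicate 3 and -0.026 after quantile normalization. Ehmt1, a histone methyltransferase, read 439, 538 and 824 in knock-in and 310, 571 and 98 in wild type (1.16, adjusted p = 0.687). L3mbtl2, a chromatin reader of that complex, read 215, 152 and 126 against 167, 288 and 416 (-0.76, adjusted p = 0.661). Of 7 measured germ line genes that E2f6 keeps silent, 5 lay below the median of every array, with Meioc at the minimum throughout, so no direction is read from this list. The 1 gene without overlap, Smc1b, named after its values were seen, read 21, 20 and 22 against 25, 58 and 23. It was dim and its nearest values were 22 and 23, so no fold is given. Smc1b is counted above among the 6 lower list genes without overlap. Tuba3b, a tubulin of testis, read 42, 26 and 28 against 39, 82 and 45 (-0.73, adjusted p = 0.650). Of 6 measured death genes targeted by E2f1, 2 were higher, 3 lower and 1 at a difference of 0 (median -0.10). The gene at 0, Pmaip1, was at the minimum on all 6 arrays. Trp73, counted as lower, lay below the median of every array. The apoptosome scaffold Apaf1 read 224, 236 and 175 against 236, 377 and 173 (-0.24, adjusted p = 0.839), and its dimmer probe set had the opposite sign (0.043). Bcl2l11, a death-promoting BCL2 relative, read 495, 405 and 805 against 549, 284 and 736 (0.16, adjusted p = 0.938). Of its 4 other probe sets, 1 had the opposite sign (-0.89). Another, dim, was higher without overlap, with 46, 45 and 21 against 13, 10 and 10. Its 2 lowest arrays were at the minimum, so no fold is given.

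Genes whose levels followed those of a member over the 6 arrays were looked for among 11052 other genes at or above the median intensity, by Pearson's r of log2 values. Closest to E2f3 were Tln1 (0.993), Igf1 (0.987) and Tm4sf1 (0.985). For E2f1 they were Ndufaf7 (0.995), Api5 (0.994) and Epor (0.988), and for Rb1 Alas1 (0.994), Mgme1 (0.986) and Gm11691 (0.983). The closest gene to E2f2 was Slc39a11 (0.997), to E2f4 Fgf11 (0.976), to E2f5 D130037M23Rik (0.988), to E2f6 Lockd (0.989), to E2f8 Usp11 (0.979), to Rbl1 Mosmo (0.984) and to Rbl2 Orc3 (0.991). With 6 points and this many candidates such values are a description of these arrays, whose dropout they share, and no p is given. No gene of the 10 lists was among the 3 closest of E2f3, E2f1 or Rb1.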

How the data were processed

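RNA of sorted HSCs had been labelled with biotin and hybridised to 6 Affymetrix arrays, per the labels' protocols. The deposited values are intensities, 1 per probe set and array, and the submitters' processing notes name RMA, with no version. They are whole numbers on a linear scale with a minimum of 10, a conversion and floor that no source used here describes. For arrays, their number limits the precision. From the 45101 entries 64 controls were left out, and 0 columns were unused. Gene symbols came from GEO's platform annotation (34945 probe sets with 1 symbol, 932 with several, 9160 not listed), and all 23 member symbols matched RefSeq (GRCm38.p6).

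log2(intensity + 1) was fitted with limma 3.58.1 (lmFit, eBayes, R 4.3.3) with genotype as the only term, and p-values were adjusted by Benjamini-Hochberg over 45037 probe sets (threshold 0.05). Adding 1 understates differences of dim probe sets. A gene is described by its brightest probe set (highest mean) and then by its others. Genes named were all members, E2f7 and Spi1, and most of the up to 2 higher and 2 lower genes of each list with the lowest p. Of the latter, Rbbp4, Pcgf6, Ring1, Stag3, Casp8ap2 and Bbc3 were left out. Of the 3 non-members with the highest Pearson's r to each member over the 6 arrays, a part was named. Some further list genes were named for their values or their promoter site. The members and lists were chosen with earlier results of these data known. The steps were run on simulated data, with pass criteria set only at a spread far smaller than that of these arrays. Those criteria do not cover the power at the spread seen here. Figures used matplotlib 3.10.9. Alternatives were a further quantile normalization, centring on array medians, a pseudocount of 16, no dim probe sets, a trended and robust prior, array weights, the replicate block, each array left out, wild-type replicates 2 and 3 left out together and, for lists, all probe sets of a gene averaged. Replicate numbers were not treated as pairs in the main fit.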

Additional observations from a re-analysis of the deposited data

How the results depend on the processing

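Under the alternatives that gave a fit, 0 of the family's probe sets passed the threshold, and 10 of 23 never took the opposite sign, the brighter E2f3 probe set among them (adjusted p from 0.294 to 0.882). The count without overlap, 1 of 23, was 2 after centring on array medians (19.5% of all probe sets) and 2 to 5 when single arrays were left out (18.2 to 30.3% of all). Against wild-type replicate 1 alone it was 11 (51.5% of all), where a lone array sets the range. Differences changed sign for Rbl2 1418146_a_at after quantile normalization (-0.085) and centring (-0.0010), and for E2f5 1417444_at after centring (-0.046) and with array weights (-0.0013). Against wild-type replicate 1 alone they did so for E2f1 1431875_a_at (-0.38), E2f2 1455790_at (-0.23), E2f5 1417444_at (-0.32), E2f8 1436186_at (-0.59), Rb1 1444400_at (0.64) and Rbl1 1432604_at (0.39). List medians moved beyond the spread between arrays against that array alone for the DP partners (-0.26), CDK inhibitors (-0.74), G1/S targets (-0.30) and G2/M targets (-0.62), and for MuvB with all probe sets averaged (0.20). The causes were not tested.

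When single arrays were left out, E2f1 1417878_at lay at -1.13 to 0.55, E2f1 1447840_x_at at -0.42 to 0.11, E2f2 1455790_at at -0.093 to 1.03, E2f3 1427462_at at -0.52 to 0.070, E2f5 1460207_s_at at -1.22 to 0.25 and E2f5 1417444_at at -0.25 to 0.25. E2f8 1436186_at lay at -0.045 to 1.02, E2f8 1444319_at at -0.031 to 0.77, Rb1 1417850_at at -0.66 to 0.37, Rb1 1444400_at at -0.54 to 0.29 and Rbl2 1418146_a_at at -0.39 to 0.63. List medians lay at -0.24 to 0.27 (MuvB), -0.081 to 0.40 (cyclin D and E kinases), -0.11 to 0.56 (G2/M), -0.25 to -0.0061 (death genes), -0.060 to 0.44 (G1/S), -0.055 to 0.29 (E2f6 partners), 0.15 to 0.51 (corepressors), -0.48 to -0.054 (CDK inhibitors) and 0.18 to 0.76 (DP partners). After quantile normalization that of the E2f6 partners was -0.026.

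With the replicate block, 0 of 23 passed, and the difference of E2f3 was -0.90. Correlations of same-numbered samples' deviations were -0.016, 0.021 and -0.017, so that the numbers gave no sign of pairing. Without dim probe sets 16 of 23 were left, and the germ line list could not be computed. Dim probe sets near the minimum of 10 bear no order.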
